A study of Mus musculus with 14 samples.

Results

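Mouse embryonic fibroblasts that received SKO together with MEF2C were compared with fibroblasts that received GFP. The SKO+MEF2C cells and the GFP cells account for 6 of the 14 arrays of the series, chosen by the vector and the day named in their labels. There were 4 SKO+MEF2C arrays, with experiments 1 and 2 at day 6 and again at day 10, and 2 GFP arrays, with 1 at each day. All cells were ICR strain fibroblasts kept in embryonic stem cell medium that was changed daily, and feeder cells were removed before the RNA was extracted. The 4 arrays of cells given SKO and the empty Flag vector, at the same days, are set beside them because they carry SKO without MEF2C. SKO is given only as an abbreviation, in common use for Sox2, Klf4 and Oct4, the last being the product of Pou5f1. The labels name no separate cultures or animals, so the p-values reflect only how far these arrays differ, a spread that may be technical. Every array holds the RNA of a whole culture. Fewer cells of a kind and less RNA per cell therefore cannot be told apart, and a culture in which only some cells responded cannot be told from one in which all did.

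Fibroblasts are mesenchymal cells that secrete collagens and proteoglycans, attach to them through integrins, and pull on them with actin and myosin fibres. During reprogramming by Oct4, Sox2, Klf4 and Myc, fibroblasts are known to lose mesenchymal gene expression and to gain epithelial junctions before the pluripotency genes turn on. MEF2C is a DNA-binding factor of the MADS box family that drives muscle and heart genes and is held in check by class IIa histone deacetylases such as HDAC7. SRF, another MADS box protein, binds CArG boxes and drives smooth muscle contractile genes.

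Each gene was represented by 1 probe set, and 19935 genes were tested. Values are deposited log2 expression values, so a difference of 1 is a doubling, and the difference from GFP is the mean of the day 6 and the day 10 differences unless a day is named. A gene is said to be higher or lower, to have risen or to have fallen when limma gave a Benjamini-Hochberg adjusted p under 0.05. The error given with a difference is its standard error (SE). Array medians were 5.68 to 5.76, with 5.74 as the mean of the GFP arrays. A group in which a gene's level lay below it was not shown to be above background there. The difference is then a lower bound on the change, and where both groups lay below it no size is claimed for the change. On the first principal component, with 52.1% of the variance, the SKO+MEF2C arrays lay between -6.30 and 2.51 and the SKO+Flag arrays between -18.3 and -5.25, far from the GFP arrays at 49.7 and 54.6.

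The transduced genes were read first. Mef2c read 9.72 and 9.47 at day 6 and 9.93 and 9.80 at day 10 in SKO+MEF2C cells, against 6.43 at day 6 and 6.69 at day 10 in GFP cells. Every SKO+MEF2C array was far above both GFP arrays, with a difference of 3.17 ± 0.09 (SE, adjusted p = 4.4e-10), and SKO+Flag cells averaged 6.78 at day 6 and 6.54 at day 10. Pou5f1 read 11.77, 11.70, 11.89 and 11.92 in SKO+MEF2C cells, against 5.24 and 5.18 in GFP cells, a difference of 6.62 ± 0.07 (adjusted p = 3e-13). Sox2 and Klf4 were not raised: the differences were 0.10 (95% interval -0.05 to 0.25) and 0.08 (95% interval -0.08 to 0.23). Whether their probes cover the transduced sequence was not checked. Myc, which is not part of SKO, was higher by 0.54 ± 0.06 (adjusted p = 5.1e-05), and Hdac7 fell by 0.48 ± 0.07 (adjusted p = 0.00034).

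The markers of fibroblasts were present in both groups. Of 12 fibroblast markers, 11 lay above the array median in SKO+MEF2C cells and 12 in GFP cells, where 10907 of all 19935 genes lay above it in GFP cells. The mean level of the markers ran from 9.25 to 9.32 on the SKO+MEF2C arrays against 10.03 to 10.50 on the GFP arrays. Of these markers 8 were lower in SKO+MEF2C cells and S100a4 was higher, where 14.6% of all genes were lower and 16.6% higher. Of 8 markers of pluripotent stem cells, 1 lay above the median in each group (Fgf4), which was higher in SKO+MEF2C cells, and Tdgf1 was lower. Their mean level ran from 5.30 to 5.35 in SKO+MEF2C cells against 5.36 to 5.38 in GFP cells. Nanog, chosen after its values were seen, had 5.26 to 5.40 in SKO+MEF2C cells and 5.51 and 5.39 in GFP cells, all below the array median.

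Some markers of other cell types also lay above the array median. In SKO+MEF2C cells these were 2 of 8 for macrophages and blood, 1 of 7 for endothelium and 2 of 7 for keratinocytes. For neural cells, striated muscle, and fat and cartilage they were 3 of 7, 3 of 8 and 3 of 7. In GFP cells the numbers were 1, 0, 1, 3, 4 and 3 in the same order. Of all 19935 genes, 10907 lay above the array median in GFP cells. For the calls below, 16.6% of all genes were higher and 14.6% lower. Among 8 markers of macrophages and blood, Cd68 and Itgam were higher, and their mean level ran from 5.13 to 5.36 in SKO+MEF2C cells against 5.05 to 5.12 in GFP cells. Among 7 markers of endothelium, Tek was higher by 2.11 ± 0.08 (adjusted p = 3.9e-09) and Erg lower, with the other 5 showing no call, and their mean level ran from 5.37 to 5.47 in SKO+MEF2C cells against 5.15 to 5.18 in GFP cells. Of 7 keratinocyte markers, Krt14, Krt6a and Sfn were higher, with a mean level of 5.31 to 5.40 in SKO+MEF2C cells and 5.25 to 5.28 in GFP cells. Tubb3 and Nefl among 7 neural markers, Tnnt2 among 8 of striated muscle and Acan and Col2a1 among 7 of fat and cartilage were higher, whereas Map2, Myod1, Des and Plin1 were lower. The mean level of these lists ran from 5.59 to 5.66, 5.76 to 5.86 and 5.81 to 5.95 in SKO+MEF2C cells, against 5.56 to 5.58, 5.80 to 5.85 and 5.76 to 5.80 in GFP cells. The part of such cells in the results below was not tested.

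Across all genes, 6237 differed between SKO+MEF2C and GFP cells, with 3319 higher and 2918 lower, and the median difference was -0.03. A difference of at least 1 was reached by 517 of the higher and 226 of the lower genes. SKO+Flag cells differed from the same GFP arrays at 7118 genes (35.7%), of which 903 by at least 1. Fewer were called without the GFP array of day 10. That fit also used another model, with a day effect shared by the vectors, so the drop is not that of the array alone. The direct comparison of SKO+MEF2C with SKO+Flag, in which the GFP arrays cancel, called 2054 genes, of which 27 differed by at least 1.

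The genes raised most were near or below the array median in GFP cells and well above it in SKO+MEF2C cells. Besides Pou5f1, the 12 genes with the largest rise include enzymes of steroid and aldehyde metabolism, receptors and signalling proteins, and cell surface molecules. Akr1c18, which inactivates progesterone in the mouse, read 11.37, 11.36, 10.68 and 10.62 in SKO+MEF2C cells, against 5.13 and 5.01 in GFP cells. Akr1c14, a related dehydrogenase of steroid hormones, read 9.83, 9.79, 9.69 and 9.73 in SKO+MEF2C cells, against 4.98 and 5.05 in GFP cells. Both were high on all 4 SKO+MEF2C arrays and below the array median on both GFP arrays, with differences of 5.94 ± 0.05 (adjusted p = 1.2e-13) and 4.74 ± 0.12 (adjusted p = 3.2e-10). Whether their probes cross-hybridise was not checked. Aldh3a1, an aldehyde dehydrogenase abundant in the cornea, was higher by 4.70 ± 0.06 (adjusted p = 2.9e-12), and Crym, a crystallin that binds thyroid hormone, by 4.33 ± 0.06 (adjusted p = 2.9e-12).

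Gpr50, a receptor related to the melatonin receptors, read 9.39, 9.19, 9.90 and 10.04 in SKO+MEF2C cells, against 4.60 and 4.59 in GFP cells, a difference of 5.03 ± 0.07 (adjusted p = 3.8e-12). Gna14, an alpha subunit of G proteins, was higher by 3.99 ± 0.07, and Sbspon, which encodes a secreted protein with a thrombospondin domain, by 4.13 ± 0.06. Among surface molecules, Ceacam1, an adhesion molecule of epithelial and blood cells, was higher by 3.80 ± 0.07, and Podxl, a sialylated protein of podocytes and of pluripotent cells, by 3.70 ± 0.06. Tmem229b was higher by 3.74 ± 0.06. The SKO+MEF2C and GFP arrays did not overlap for any of the 12 genes, as was also the case for 43.8% of all genes tested.

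Of the 12 genes, Anxa10 and Akr1c14 were higher than in SKO+Flag cells and 8 were lower, where 5.49% of all genes were higher and 4.82% lower. The annexin gene Anxa10 read 10.04, 9.89, 9.11 and 9.24 in SKO+MEF2C cells and 8.34, 8.29, 6.39 and 6.19 in SKO+Flag cells, against 4.62 and 4.89 in GFP cells. The 3 groups did not overlap. SKO+MEF2C cells exceeded GFP cells by 4.82 ± 0.07 (adjusted p = 3.8e-12) and SKO+Flag cells by 2.27 ± 0.06 (adjusted p = 5e-09). Akr1c14 exceeded SKO+Flag cells by 1.38 ± 0.10 (adjusted p = 1.1e-05). The genes that were lower than in SKO+Flag cells include Sbspon, with a difference of -0.90 ± 0.05 (adjusted p = 1.7e-06), Aldh3a1 with one of -0.82 ± 0.05 (adjusted p = 4.2e-06) and Gpr50 with one of -0.77 ± 0.06 (adjusted p = 1.5e-05). The calls of Crym and Gna14 against SKO+Flag were lost without single arrays, at adjusted p of up to 0.16 and 0.055. These genes were picked for their difference from GFP on the same SKO+MEF2C arrays.

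The 250 bases before the start of Anxa10 (GRCm38.p6, chr8:62123194-62123443, minus strand) are shown because it is the 1 of the 8 most raised genes with a RefSeq promoter window that holds a match to the MEF2 motif, whose letters are in capitals and lie 241 to 232 bases before the start:
Anxa10: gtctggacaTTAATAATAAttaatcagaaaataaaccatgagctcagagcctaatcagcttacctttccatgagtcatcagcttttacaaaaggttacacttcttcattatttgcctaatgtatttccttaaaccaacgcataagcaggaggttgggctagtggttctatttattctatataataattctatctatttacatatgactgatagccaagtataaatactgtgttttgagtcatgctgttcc
Both strands were searched for the MEF2 motif, the CArG box and the octamer bound by POU factors (ATGCNAAT). The MEF2 motif stood in the windows of 444 of 15612 measured genes (2.84%), the CArG box in 1.45% and the octamer in 3.06%. None of the 8 most raised genes with a window held a CArG box or the octamer. A match is a string of letters and says nothing of binding.

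The 12 genes lowered most include secreted matrix proteins, growth factors and receptors. Ogn, the small proteoglycan osteoglycin, read 5.41, 5.45, 5.84 and 5.69 in SKO+MEF2C cells, against 8.60 at day 6 and 9.37 at day 10 in GFP cells. Lum, the collagen-binding proteoglycan lumican, read 5.29, 5.49, 6.0 and 5.55 in SKO+MEF2C cells, against 7.68 and 9.26 in GFP cells. Both were at or near background on all 4 SKO+MEF2C arrays and well above it on both GFP arrays, and they fell by 3.39 ± 0.13 (adjusted p = 4.6e-09) and 2.89 ± 0.12 (adjusted p = 1.1e-08), both lower bounds. Dpt, the matrix protein dermatopontin, was below the array median in SKO+MEF2C cells too and fell by 2.53 ± 0.07 (adjusted p = 6.9e-10), and Svep1, a large matrix protein with many repeats, by 2.51 ± 0.08 (adjusted p = 1.2e-09).

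Among signalling genes, Dlk1, an EGF-repeat protein of the cell surface that restrains fat cell formation, read 6.93, 6.88, 6.89 and 6.66 in SKO+MEF2C cells, against 8.93 at day 6 and 10.9 at day 10 in GFP cells. The SKO+MEF2C arrays were close to each other and below both GFP arrays, with a difference of -3.08 ± 0.10 (adjusted p = 1.6e-09). Ptn, the heparin-binding growth factor pleiotrophin, fell by 2.99 ± 0.11, the stromal chemokine gene Cxcl12 fell by 2.73 ± 0.07, and Tgfbr3, the TGF-beta co-receptor betaglycan, by 2.39 ± 0.08. The receptor genes S1pr3 for sphingosine 1-phosphate and Agtr2 for angiotensin fell by 2.77 ± 0.06 and 2.51 ± 0.13. Lrrc17 fell by 2.70 ± 0.06 and Gas2, a cytoskeletal protein of growth-arrested cells, by 2.39 ± 0.07. Of these 12 genes, Cxcl12 and Svep1 also differed from SKO+Flag cells, by -0.21 ± 0.05 and 0.31 ± 0.06. Of all genes 10.3% differed from SKO+Flag cells, so this count is near the share over all genes. The Cxcl12 call was lost without any one of 4 arrays, SKO+MEF2C experiment 2 at either day or SKO+Flag experiment 2 at either day, at adjusted p of 0.12, 0.11, 0.092 and 0.085.

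**Figure D1:**
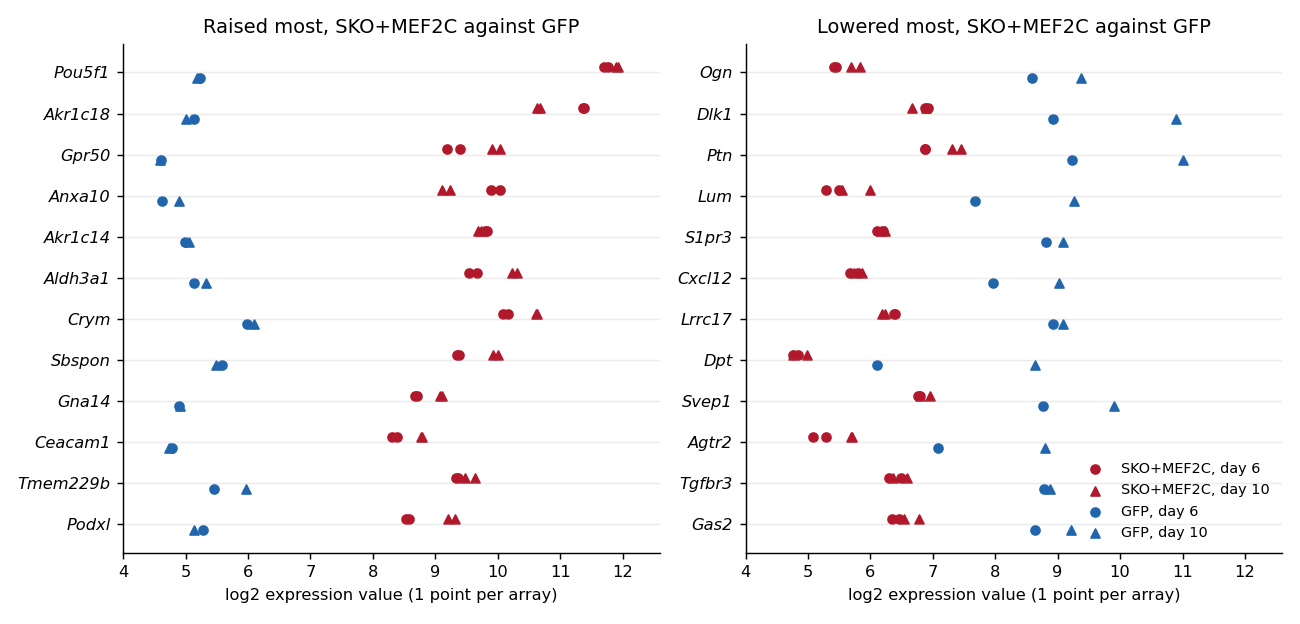
Log2 expression value (x axis) of the 12 genes raised most (left) and lowered most (right) in SKO+MEF2C against GFP cells, 1 row per gene and 1 point per array, with SKO+MEF2C arrays in red above GFP arrays in blue, circles for day 6 and triangles for day 10. Raised genes such as Akr1c18 lie between 10.62 and 11.37 on the SKO+MEF2C arrays, against 5.13 and 5.01 on the GFP arrays, and several lowered genes, such as Dlk1, are higher on the day 10 than on the day 6 GFP array.

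The promoter of S1pr3 (GRCm38.p6, chr13:51408368-51408617, plus strand) is the 1 of the 10 windows found for the most lowered genes with a match to the MEF2 motif, here 188 to 179 bases before the start and in capitals. It is shown beside Anxa10 because the same motif stood before a gene that fell:
S1pr3: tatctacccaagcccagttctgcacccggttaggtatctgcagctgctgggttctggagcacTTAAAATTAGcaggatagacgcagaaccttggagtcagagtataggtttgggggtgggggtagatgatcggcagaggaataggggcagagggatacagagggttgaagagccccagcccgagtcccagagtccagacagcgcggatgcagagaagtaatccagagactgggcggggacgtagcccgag
S1pr3 read 6.2, 6.11, 6.23 and 6.17 in SKO+MEF2C cells and 6.34 at day 6 and 6.28 at day 10 in the mean of SKO+Flag cells, against 8.80 and 9.08 in GFP cells. SKO+MEF2C and SKO+Flag cells differed by -0.13 ± 0.05 (adjusted p = 0.13).

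The fibroblast lists held genes that fell, genes that stayed near the GFP level and genes that rose above it. A gene is called kept when the 95% interval of its difference from GFP lay within -0.5 and 0.5, which held for 80.3% of all genes and for 70.3% of the 10907 genes above the GFP array median. A kept gene can also be called higher or lower, as S100a4 and Twist1 were, so the kept genes overlap with the called ones. In the collagen list, which also holds the enzymes that cross-link collagen and the elastic fibre genes, 14 of 19 measured members were lower, 3 higher and 2 not called, against 14.6% of all genes lower and 16.6% higher. Its median difference was -1.08, beside -0.03 for all genes. In the list of proteoglycans and matricellular genes, 12 of 21 were lower and 4 higher, with a median of -0.29. Of 18 mesenchymal transcription factors 13 were lower and 1 higher (median -0.48), and of 18 surface and cytoskeletal genes of fibroblasts 10 were lower and 6 higher (median -0.19). A GFP array can be left out only in a model with a shared day effect. With both GFP arrays that model left the mean differences as they were and called 5376 genes, with 9 of the proteoglycan genes lower and 2 higher. Without the GFP array of day 10 it called 7 of them lower (median -0.03) and 5 higher, and without that of day 6, 14 lower and 2 higher. Calls given below as without a GFP array are from this model. With both GFP arrays it already lost the calls of 20 named genes, among them Eln, Postn, Prrx2, Twist1, Sfrp2, Egfl6, Cd34, Epcam, Cdh1, Krt19, Krt14, Krt6a and Krt7. Over all genes the model called 5376 against 6237 in the main fit, and fewer still when either GFP array was left out. A smaller count in a list under these settings is therefore not by itself particular to that list.

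**Figure D2:**
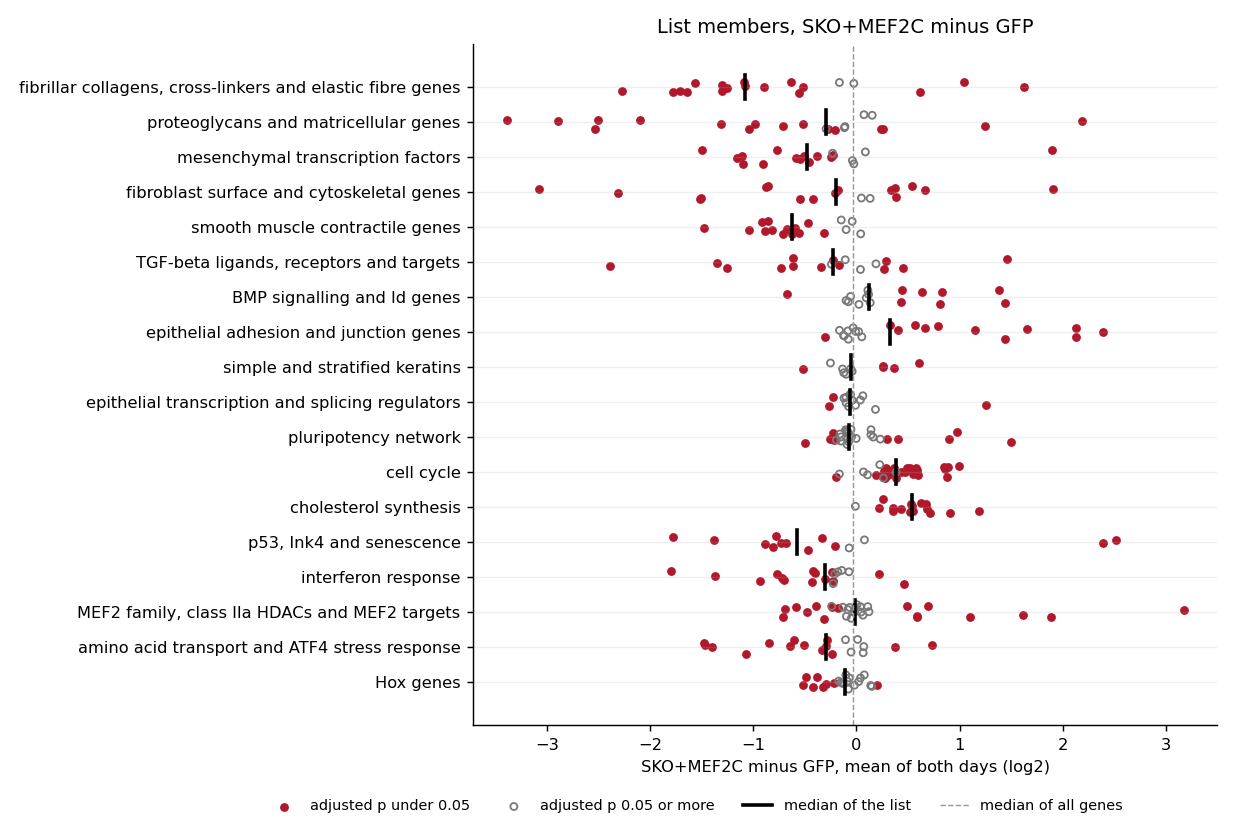
SKO+MEF2C minus GFP difference (x axis, log2, mean of both days) of the measured members of 18 gene lists (y axis), filled red where the adjusted p was under 0.05 and open grey otherwise, with a black bar at each list's median and a dashed line at the median of all genes. The contractile genes (median -0.63) and the collagens (median -1.08) lie mostly left of the line, and the cholesterol synthesis genes (median 0.53) and cell cycle genes (median 0.38) mostly right of it.

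Among the collagens, the 2 chains of type I collagen behaved differently. Col1a1, chosen after its values were seen, read 11.76, 11.80, 11.41 and 11.43 in SKO+MEF2C cells, against 12.48 and 12.89 in GFP cells, and was lower on every array by more than the arrays of a day differed (-1.08 ± 0.06, adjusted p = 1.3e-07). Col1a2 read 12.26, 12.26, 12.27 and 12.31 in SKO+MEF2C cells, against 12.24 and 12.63 in GFP cells. Its arrays overlapped and it was kept, with an interval of -0.30 to -0.03. Col3a1, the collagen of soft connective tissue, read 8.77, 8.90, 9.17 and 9.03 in SKO+MEF2C cells, against 10.67 and 11.80 in GFP cells, and was the collagen that fell most in this list (-2.27 ± 0.06, adjusted p = 6.9e-10). Col6a1, of the beaded type VI collagen, was kept (-0.02, 95% interval -0.16 to 0.11). Col6a1 was lower without the GFP array of day 6 (-0.30, adjusted p = 0.038).

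Of the enzymes that cross-link collagen and elastin, Lox fell by 1.64 ± 0.05 (adjusted p = 1.5e-09) and Loxl1 by 1.71 ± 0.06 (adjusted p = 2e-09). Mfap4, a microfibril protein, fell by 1.78 ± 0.07 (adjusted p = 1.1e-08), and its GFP level was 6.32 at day 6 and 8.52 at day 10. Eln, which encodes elastin and was chosen after its values were seen, read 6.30, 6.54, 7.52 and 7.54 in SKO+MEF2C cells, against 6.45 and 9.29 in GFP cells. The groups overlapped at day 6, and the difference of -0.89 ± 0.11 (adjusted p = 9.2e-05) was 0.08 without the GFP array of day 10 (adjusted p = 0.87).

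Some matrix genes were above the GFP level. Fbln5, an elastic fibre protein chosen after its values were seen, read 12.19, 12.16, 12.09 and 12.14 in SKO+MEF2C cells, against 10.29 and 10.74 in GFP cells (1.63 ± 0.05, adjusted p = 1.7e-09). Prelp, a proteoglycan of basement membranes chosen in the same way, read 10.004, 9.74, 10.03 and 10.14 in SKO+MEF2C cells, against 7.07 and 8.51 in GFP cells (2.19 ± 0.09, adjusted p = 1.1e-08). Ccn2, the connective tissue growth factor, was higher by 1.24 ± 0.06 (adjusted p = 2.4e-08). All 3 were above both GFP arrays on every SKO+MEF2C array. SKO+Flag cells averaged 12.1 and 11.6 for Fbln5, 10.3 and 9.85 for Prelp, and 11.6 and 11.4 for Ccn2 at days 6 and 10.

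Col8a1, a short-chain collagen of vessel walls, was above GFP with MEF2C and not in SKO+Flag cells. It read 10.79, 10.57, 10.81 and 10.89 in SKO+MEF2C cells and 9.85, 9.76, 9.35 and 9.66 in SKO+Flag cells, against 9.51 and 9.93 in GFP cells. The SKO+MEF2C arrays lay above all others, which overlapped each other. The difference from GFP was 1.05 ± 0.10 (adjusted p = 7.3e-06) and that from SKO+Flag 1.11 ± 0.08 (adjusted p = 9.6e-06). The difference from GFP was 0.64 without the GFP array of day 6 (adjusted p = 0.19).

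Compared with SKO+Flag cells, SKO+MEF2C cells had more of many matrix genes. Of the 19 collagen list members 8 were higher and 2 lower than in SKO+Flag cells, and of the 21 proteoglycan and matricellular genes 12 were higher and 1 lower, against 5.49% of all genes higher and 4.82% lower. The 8 were Col5a1, Col5a2, Col8a1, Col11a1, Col12a1, Lox, Loxl1 and Fbln5. The 2 lower members were Col6a3 and Fbln2, and the lower proteoglycan was Fmod. Lox read 10.11, 10.14, 9.52 and 9.54 in SKO+MEF2C cells and 9.47, 9.44, 8.55 and 8.52 in SKO+Flag cells, against 11.19 and 11.74 in GFP cells. At each day SKO+MEF2C lay between SKO+Flag and GFP, 0.83 ± 0.04 above SKO+Flag (adjusted p = 1.2e-06).

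Postn, the matricellular protein periostin, read 9.18, 9.06, 9.29 and 9.39 in SKO+MEF2C cells and 8.45, 8.38, 7.45 and 8.16 in SKO+Flag cells, against 9.52 and 11.03 in GFP cells. It exceeded SKO+Flag by 1.12 ± 0.13 (adjusted p = 0.00024) and differed from GFP by -1.04 ± 0.16 (adjusted p = 0.00034), which was -0.07 without the GFP array of day 10 (adjusted p = 0.93). Col5a2, of the fibril-nucleating type V collagen, exceeded SKO+Flag by 0.91 ± 0.06 (adjusted p = 4.6e-06) and differed from GFP by -0.63 ± 0.07 (adjusted p = 3.3e-05). Efemp1, a fibulin, read 10.72, 10.74, 10.24 and 10.22 in SKO+MEF2C cells and 9.87, 9.85, 8.99 and 9.01 in SKO+Flag cells, against 10.47 and 10.02 in GFP cells. SKO+MEF2C and GFP arrays overlapped, and SKO+Flag arrays lay below both (1.05 ± 0.04 between SKO+MEF2C and SKO+Flag, adjusted p = 3e-07).

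Some matricellular genes were kept. Sparc, a collagen-binding glycoprotein, read between 12.06 and 12.10 on the SKO+MEF2C arrays, against 11.93 and 12.45 in GFP cells, with an interval of -0.22 to 0.00. Thbs1, thrombospondin 1, had an interval of -0.03 to 0.18 and Tnc, tenascin C, of -0.24 to 0.01. In all, 7 of the 20 members of this list that lay above the GFP array median were kept, as were 2 of 19 in the collagen list, against 70.3% of all genes above the median. Sparc (-0.44, adjusted p = 0.006) and Tnc (-0.54, adjusted p = 0.036) were lower without the GFP array of day 6.

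The mesenchymal transcription factors were split by gene. Snai2, a repressor of E-cadherin that marks mesenchyme, read 7.75, 7.60, 7.48 and 7.49 in SKO+MEF2C cells, against 8.86 and 9.30 in GFP cells, and fell by 1.5 ± 0.06 (adjusted p = 7.6e-09). Osr1 and Foxc2, factors of embryonic mesoderm, fell by 1.16 ± 0.08 (adjusted p = 5.2e-07) and 1.11 ± 0.08 (adjusted p = 1e-06). Prrx1, a homeobox factor of limb mesenchyme, read 10.04, 10.08, 9.79 and 9.76 in SKO+MEF2C cells, against 9.99 and 9.89 in GFP cells, with overlapping arrays and an interval of -0.16 to 0.11. The T-box factors Tbx5 (interval -0.16 to 0.09) and Tbx18 (-0.05 to 0.22) were kept too. In all, 5 of the 17 factors above the GFP array median were kept, against 70.3% of all genes above it. Twist1 is among the 5 and was also called lower.

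Meox2, a homeobox factor of muscle and vessel precursors, was the 1 factor of the list that rose. It read 7.70, 7.80, 8.22 and 8.26 in SKO+MEF2C cells and 7.81, 7.58, 7.38 and 7.65 in SKO+Flag cells, against 5.84 and 6.35 in GFP cells. The difference from GFP was 1.90 ± 0.09 (adjusted p = 3.3e-08) and that from SKO+Flag 0.39 ± 0.07 (adjusted p = 0.0062). SKO+MEF2C and SKO+Flag arrays overlapped at day 6 and not at day 10. Against SKO+Flag cells 6 of the 18 factors were higher and Osr1 was lower, at adjusted p = 0.053 without SKO+MEF2C experiment 1 at day 10. Over all genes 5.49% were higher than in SKO+Flag cells and 4.82% lower. Prrx2, the paralog of Prrx1, exceeded SKO+Flag by 0.63 ± 0.06 (adjusted p = 8.8e-05) and Twist1, a basic helix-loop-helix factor, by 0.37 ± 0.05 (adjusted p = 0.0006). Both were lower than in GFP cells, with differences of -0.46 ± 0.08 (adjusted p = 0.00072) and -0.22 ± 0.06 (adjusted p = 0.013), and both differences had the other sign without the GFP array of day 10 (0.04 and 0.13, adjusted p = 0.9 and 0.32).

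Among surface and cytoskeletal genes, Pdgfra, a receptor of platelet-derived growth factor that defines fibroblasts, read 7.21, 7.34, 7.64 and 7.53 in SKO+MEF2C cells, against 9.49 and 10.003 in GFP cells (-2.31 ± 0.08, adjusted p = 2.7e-09). Pdgfrb fell by 1.51 ± 0.06 (adjusted p = 9.7e-09). Nt5e, the surface enzyme CD73, ran the other way, at 8.34, 8.38, 8.77 and 8.68 in SKO+MEF2C cells against 6.79 and 6.49 in GFP cells (1.90 ± 0.08, adjusted p = 7.9e-09). Vim, the intermediate filament of mesenchymal cells, was kept at 12.90, 12.85, 12.77 and 12.79 in SKO+MEF2C cells against 12.80 and 12.59 in GFP cells, with an interval of 0.02 to 0.24, and Eng, a TGF-beta co-receptor, with one of -0.07 to 0.17. Eng was higher without the GFP array of day 10 (0.34, adjusted p = 0.013).

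Against SKO+Flag cells, 6 of the 18 surface genes were higher and 0 lower, where 5.49% of all genes were higher and 4.82% lower. The 6 were Thy1, Cd44, S100a4, Cdh2, Cdh11 and Itgav. Thy1, a surface protein lost early in reprogramming, read 8.35, 8.39, 8.11 and 8.22 in SKO+MEF2C cells and 7.95, 8.05, 7.47 and 7.48 in SKO+Flag cells, against 9.20 and 9.05 in GFP cells. The 3 groups did not overlap. SKO+MEF2C cells exceeded SKO+Flag cells by 0.53 ± 0.05 (adjusted p = 9.8e-05) and differed from GFP cells by -0.86 ± 0.06 (adjusted p = 1.3e-06). Cd44, the hyaluronan receptor, was above both SKO+Flag (0.47 ± 0.06, adjusted p = 0.00041) and GFP (0.66 ± 0.07, adjusted p = 2.3e-05).

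Most contractile genes of smooth muscle and myofibroblasts were lower than in GFP cells and higher than in SKO+Flag cells. Of 17 members 13 were lower than in GFP cells and 0 higher, with a median of -0.63, beside 14.6% and 16.6% of all genes. Against SKO+Flag cells 11 of the 17 were higher and 0 lower, with a median of 0.46, beside 5.49% and 4.82% of all genes. SKO+Flag cells were themselves below GFP at 15 of the 17, with a median of -0.81. Of all genes, 18.2% were lower in SKO+Flag than in GFP cells, and 17.5% higher. The SKO+MEF2C and SKO+Flag values share the GFP arrays. Cnn1, the thin-filament protein calponin, read 8.20, 7.90, 7.08 and 7.07 in SKO+MEF2C cells and 7.26, 7.26, 5.75 and 5.78 in SKO+Flag cells, against 9.09 and 8.99 in GFP cells. At each day the SKO+MEF2C arrays lay between the other groups without touching them. The differences were -1.47 ± 0.08 from GFP (adjusted p = 8.5e-08) and 1.05 ± 0.06 from SKO+Flag (adjusted p = 4.2e-06).

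Tagln, the actin-binding protein SM22, read 10.14, 10.13, 9.27 and 9.37 in SKO+MEF2C cells and 9.38, 9.48, 8.12 and 8.05 in SKO+Flag cells, against 10.59 and 10.64 in GFP cells. Myl9, a myosin light chain, read 9.59, 9.44, 8.67 and 8.87 in SKO+MEF2C cells and 8.64, 8.74, 7.55 and 7.67 in SKO+Flag cells, against 9.77 and 10.23 in GFP cells. Both showed the same order at each day, SKO+MEF2C between SKO+Flag and GFP. They exceeded SKO+Flag by 0.97 ± 0.05 (adjusted p = 9.4e-07) and 0.99 ± 0.06 (adjusted p = 5e-06). Acta2, smooth muscle actin, chosen after its values were seen, exceeded SKO+Flag by 0.65 ± 0.04 (adjusted p = 7.6e-06) and differed from GFP by -0.71 ± 0.05 (adjusted p = 1.7e-06). Myh11, the smooth muscle myosin heavy chain, and Tpm2, a tropomyosin, fell by 1.04 ± 0.05 and 0.91 ± 0.06 against GFP.

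The differences from GFP rest in part on the day 10 GFP array. Without it the median difference of the 17 contractile genes was -0.23, beside -0.63 in the same model with both arrays. The differences were then -0.21 for Tagln, -0.12 for Myl9 and -0.19 for Acta2. The day 6 difference of Myl9 was -0.26 ± 0.11 (adjusted p = 0.14) and its day 10 difference -1.46 ± 0.11 (adjusted p = 2.1e-06). Actg2, enteric smooth muscle actin, and Srf itself were kept, with intervals of -0.10 to 0.18 and -0.19 to 0.11.

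**Figure D3:**
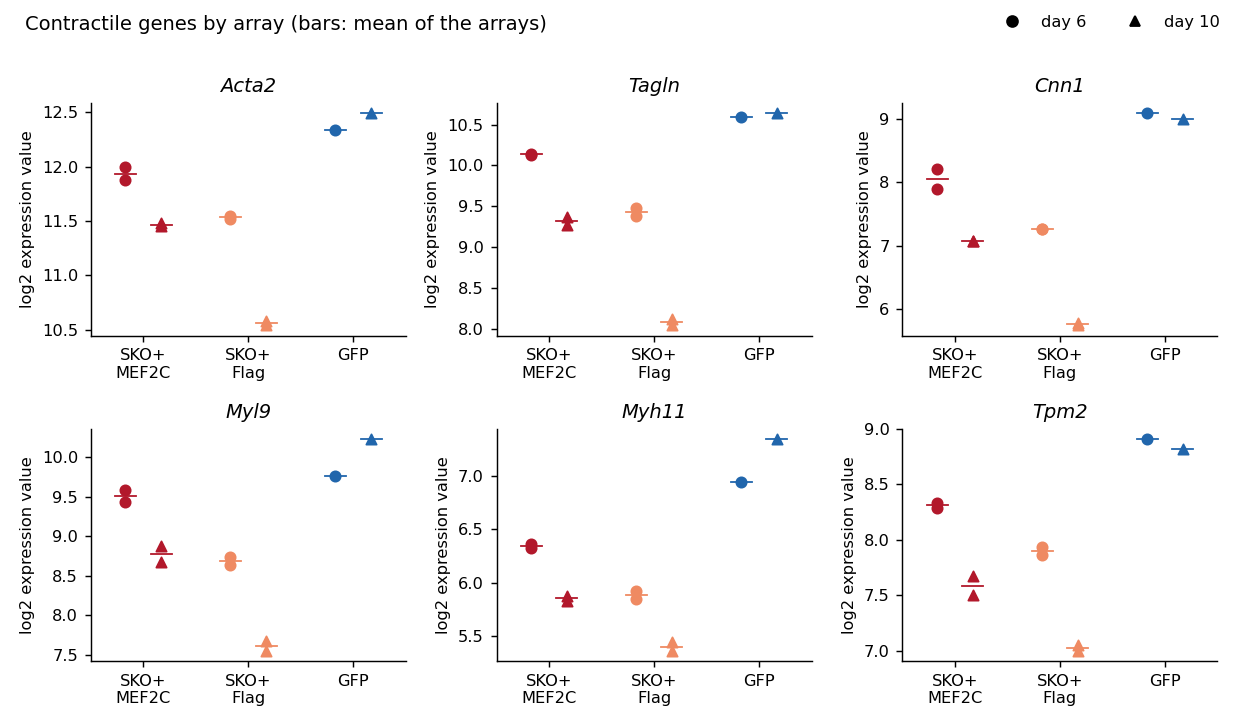
Log2 expression value (y axis) of 6 contractile genes in SKO+MEF2C, SKO+Flag and GFP cells (x axis), 1 point per array, circles for day 6 and triangles for day 10, with a short bar at the mean of the arrays of a day. In each panel the SKO+MEF2C points of a day lie above the SKO+Flag points and below the GFP point of that day, for Cnn1 at 8.20 and 7.90 against 7.26 in SKO+Flag and 9.09 in GFP cells at day 6.

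CArG boxes, at which SRF binds, were looked for in the 250 bases before the start of the contractile genes. Of the 13 genes with a RefSeq window, Cnn2, Myl9 and Srf held one (23.1%, beside 1.45% of all measured genes with a window), and 0 held the MEF2 motif. The Myl9 window (GRCm38.p6, chr2:156775214-156775463, plus strand) is shown as that of the gene whose level differed by about 1 between SKO+MEF2C and SKO+Flag, and the Srf window (GRCm38.p6, chr17:46556163-46556412, minus strand) as that of a gene of the same list that was kept. Capitals mark the CArG boxes, 161 to 152 bases before the start of Myl9 and 82 to 73 and 62 to 53 bases before that of Srf:
Myl9: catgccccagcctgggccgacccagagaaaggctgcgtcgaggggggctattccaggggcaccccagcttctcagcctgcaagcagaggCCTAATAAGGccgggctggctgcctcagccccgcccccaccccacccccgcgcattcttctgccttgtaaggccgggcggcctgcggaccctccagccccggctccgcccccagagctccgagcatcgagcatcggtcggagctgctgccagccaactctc
Srf: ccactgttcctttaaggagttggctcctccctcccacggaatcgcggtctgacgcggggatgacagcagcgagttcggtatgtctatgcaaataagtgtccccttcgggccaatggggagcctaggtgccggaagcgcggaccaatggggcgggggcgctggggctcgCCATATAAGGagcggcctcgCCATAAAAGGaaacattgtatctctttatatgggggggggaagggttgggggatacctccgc
The Srf window also holds the octamer, which does not overlap its CArG boxes. These matches are descriptions of the windows.

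Of the TGF-beta ligands, receptors and targets, 9 of 17 were lower and 4 higher, against 14.6% and 16.6% of all genes. Their median was -0.23. TGF-beta is the main inducer of matrix and contractile genes in fibroblasts. Besides the co-receptor Tgfbr3, the ligand Tgfb3 fell by 1.26 ± 0.07 (adjusted p = 8e-08) and the target Tgfbi by 1.35 ± 0.08 (adjusted p = 1.4e-07). Skil, a repressor of SMAD proteins, rose by 1.46 ± 0.07 (adjusted p = 2.1e-08), to 8.49, 8.35, 8.32 and 8.38 in SKO+MEF2C cells against 7.01 and 6.85 in GFP cells. Smad2, which carries the signal, was kept (interval -0.27 to 0.06). Against SKO+Flag cells 7 members were higher and 0 lower, where 5.49% of all genes were higher and 4.82% lower. The 7 include Tgfb3 (0.59 ± 0.05, adjusted p = 6.1e-05), the latent-complex protein Ltbp2 (0.61 ± 0.06, adjusted p = 8.8e-05) and Inhba, an activin subunit (0.44 ± 0.08, adjusted p = 0.0039). Without 1 SKO+MEF2C array, experiment 1 at day 6 or experiment 2 at day 10, 4 were higher than in SKO+Flag cells. Leaving out the GFP array of day 6 left 2 members higher than in GFP cells, beside 3 in the same model with both arrays.

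Of the BMP signalling genes and the Id genes that BMPs induce, 7 of 16 were higher and 1 lower (median 0.13). The shares over all genes were 16.6% higher and 14.6% lower. Id1 read 8.60, 8.61, 8.54 and 8.57 in SKO+MEF2C cells, against 7.19 on both GFP arrays (1.39 ± 0.07, adjusted p = 4.8e-08). The ligand Bmp2 rose by 1.44 ± 0.08 (adjusted p = 1.1e-07) and its receptor Bmpr2 by 0.81 ± 0.12 (adjusted p = 0.00025), while Bmp4 was the member that fell. Id3 exceeded SKO+Flag by 0.69 ± 0.08 (adjusted p = 0.0002), at 8.33, 8.18, 7.87 and 8.04 in SKO+MEF2C cells and 7.56, 7.84, 7.24 and 7.05 in SKO+Flag cells, against 7.76 and 8.22 in GFP cells. Its difference from GFP was 0.12 (interval -0.09 to 0.32), and 0.59 without the GFP array of day 10 (adjusted p = 0.0081).

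Many matrix genes differed more from GFP at day 10 than at day 6. At day 6, 11 of the 19 collagen list members were lower and 3 higher than in GFP cells (8.77% of all genes were lower and 12% higher), and at day 10, 15 were lower and 3 higher (10.1% lower and 12.8% higher, 22.9% in all). The median difference was -0.60 at day 6 and -1.47 at day 10. A test of the day 10 difference minus the day 6 difference called 542 genes (2.72%), 345 of them lower and 197 higher, which is 1.73% and 0.988% of all genes. Without any one SKO+MEF2C array it called 341 to 362. In the collagen list 12 of 19 members were lower by this test, in the proteoglycan list 13 of 21, among the contractile genes 9 of 17, and none of these members were higher. Each day has 1 GFP array, so a change between days and 1 unusual GFP array cannot be told apart.

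**Figure D4:**
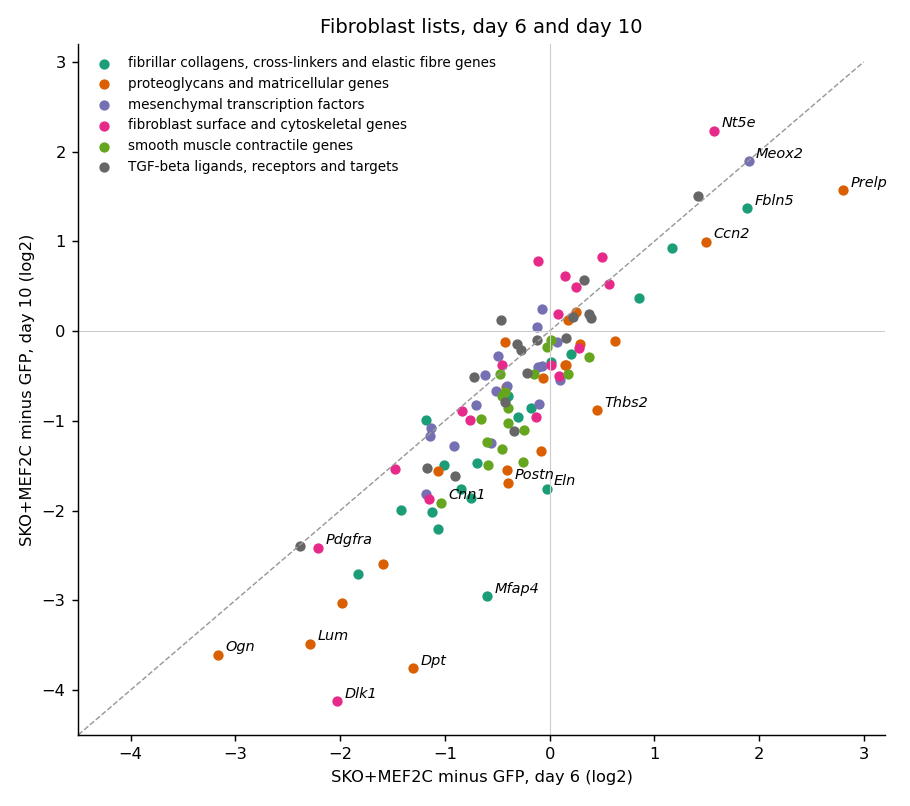
SKO+MEF2C minus GFP difference at day 6 (x axis, log2) and at day 10 (y axis, log2) for the members of 6 fibroblast lists, 1 point per gene, coloured by list, with a dashed line where both days are equal. Most points lie below the line, such as Dlk1 (-2.03 at day 6 and -4.13 at day 10) and Dpt (-1.30 and -3.76).

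The genes whose difference changed most between days are given by array. Dpt read 4.76, 4.85, 4.98 and 4.76 in SKO+MEF2C cells, against 6.11 at day 6 and 8.63 at day 10 in GFP cells. Sfrp2, a secreted inhibitor of Wnt signalling, read 9.08, 9.17, 9.23 and 9.19 in SKO+MEF2C cells, against 6.72 at day 6 and 9.39 at day 10 in GFP cells. Egfl6, a secreted EGF-repeat protein, read 7.28, 7.34, 8.02 and 8.18 in SKO+MEF2C cells, against 4.97 and 8.38 in GFP cells. In all 3 the GFP arrays differed far more between the days than the SKO+MEF2C arrays did. The differences from GFP of Sfrp2 and Egfl6, 1.11 and 1.03, were -0.41 and -0.54 without the GFP array of day 6 (adjusted p = 0.28 and 0.15). Igfbp2 and Ptx3, a binding protein of insulin-like growth factors and a secreted pentraxin, followed the pattern of Dpt, with day 10 differences of -2.88 and -2.77 and day 6 differences of -0.47 and -0.31. Their differences were -0.54 and -0.26 without the GFP array of day 10 (adjusted p = 0.07 and 0.081).

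Of the 5 genes whose difference gained most between the days, Epcam is described with the junction genes. Cd34, a sialomucin of blood and vessel precursors, read 7.14, 7.16, 8.69 and 8.68 in SKO+MEF2C cells and 8.22, 8.03, 9.63 and 9.62 in SKO+Flag cells, against 7.47 and 6.97 in GFP cells. Its difference from GFP was -0.32 at day 6 (adjusted p = 0.069) and 1.71 at day 10 (adjusted p = 7.4e-07). Aqp3, a water and glycerol channel of epithelia, was above GFP by 0.93 at day 6 and 2.41 at day 10, Necab1, a calcium-binding protein of neurons, by 1.68 and 3.25, and Ifitm1, an interferon-induced membrane protein, by 0.48 and 1.96. Without the GFP array of day 10 the mean differences of Cd34, Aqp3 and Ifitm1 were -0.25, 0.64 and 0.35 (adjusted p = 0.26, 0.16 and 0.13).

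Part of the epithelial junction genes rose. Of 21 junction and adhesion genes 11 were higher and Prss8 was lower, against 16.6% and 14.6% of all genes. Their median was 0.33, and 13 of the 21 lay below the array median in GFP cells. Perp, a desmosomal membrane protein, read 10.01, 10.09, 9.92 and 10.03 in SKO+MEF2C cells, against 7.92 and 7.32 in GFP cells (2.39 ± 0.06, adjusted p = 3.2e-10). Dsp, the desmosomal linker desmoplakin, read 7.58, 7.40, 7.70 and 7.65 in SKO+MEF2C cells, against 5.37 and 5.54 in GFP cells (2.13 ± 0.08, adjusted p = 7.1e-09). Spint2, an inhibitor of surface serine proteases, was higher by 2.13 ± 0.06 (adjusted p = 6.9e-10) and F11r, a tight junction adhesion molecule, by 1.65 ± 0.06 (adjusted p = 2.3e-09). These genes were above GFP on every SKO+MEF2C array at both days.

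Epcam and Cdh1, the adhesion molecules that mark epithelium, were lower than in SKO+Flag cells. Epcam read 5.20, 5.34, 6.62 and 6.34 in SKO+MEF2C cells and 5.84, 5.76, 8.08 and 8.24 in SKO+Flag cells, against 5.26 and 4.90 in GFP cells. Cdh1, which encodes E-cadherin, read 5.74, 5.98, 6.07 and 5.99 in SKO+MEF2C cells and 6.13, 6.14, 6.61 and 6.76 in SKO+Flag cells, against 5.53 and 5.55 in GFP cells. In SKO+MEF2C cells Epcam lay below the array median at day 6 and above it at day 10, and Cdh1 was close to it. Both were below the SKO+Flag arrays of the same day, by -1.11 ± 0.07 (adjusted p = 3.8e-06) and -0.47 ± 0.08 (adjusted p = 0.0039). Pkp1, a desmosomal plakophilin, differed from SKO+Flag by -0.48 ± 0.05 (adjusted p = 9e-05). In all 6 of the 21 were lower than in SKO+Flag cells and 0 higher, against 4.82% and 5.49% of all genes. The 6 were Cdh1, Epcam, Pkp1, Ocln, Spint2 and St14. The Spint2 difference of -0.18 ± 0.05 lost its call without any one of the 8 arrays compared, at adjusted p of 0.063 to 0.16.

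The differences of several junction genes from GFP moved with single GFP arrays. In the model with a shared day effect 7 of the 21 were higher than in GFP cells with both GFP arrays, 6 without that of day 10 (median -0.00) and 10 without that of day 6. Without the GFP array of day 10 the difference of Epcam was -0.47, beside 0.79 ± 0.08 with it (adjusted p = 2e-05). That of Pkp1 was then 0.25, beside 0.67 ± 0.06 (adjusted p = 3.8e-06). The difference of Cdh1, 0.41 ± 0.10 (adjusted p = 0.0097), was 0.09 without the GFP array of day 10 and 0.72 without that of day 6 (adjusted p = 0.89 and 0.093).

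**Figure D5:**
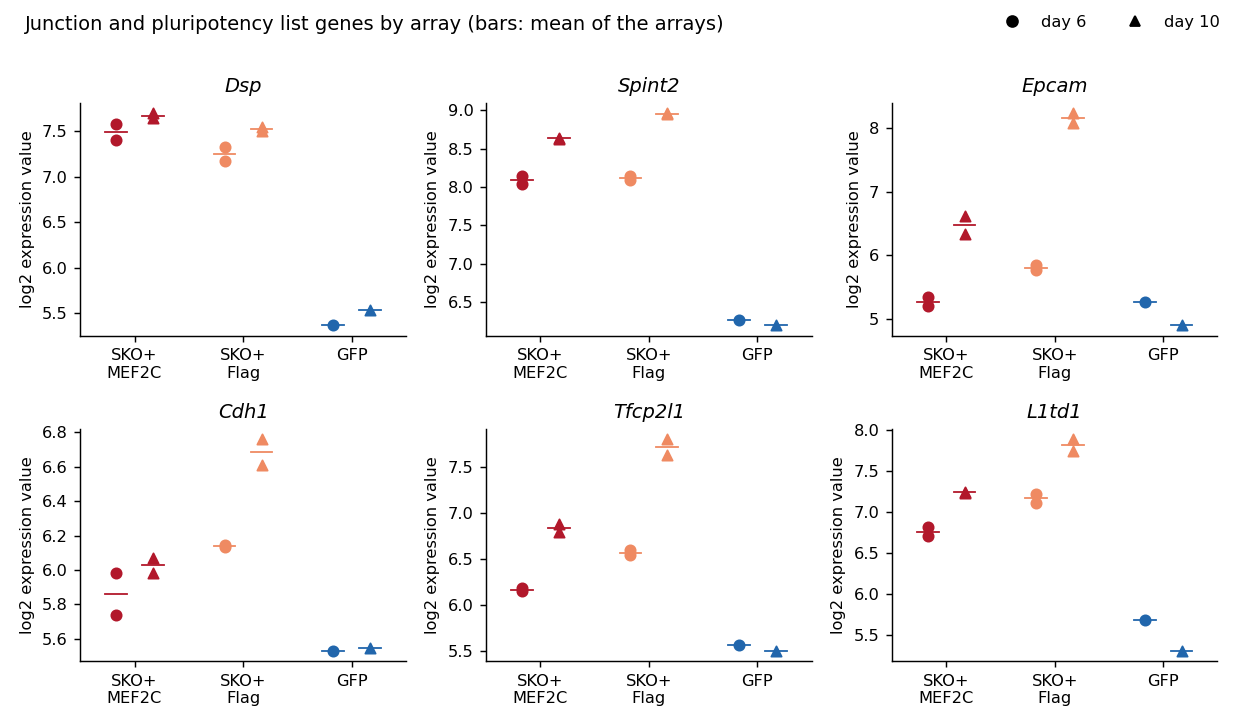
Log2 expression value (y axis) of 4 junction genes (Dsp, Spint2, Epcam, Cdh1) and 2 genes of the pluripotency list (Tfcp2l1, L1td1) in SKO+MEF2C, SKO+Flag and GFP cells (x axis), 1 point per array, circles for day 6 and triangles for day 10, with a short bar at the mean of the arrays of a day. For Epcam the day 10 points lie at 6.62 and 6.34 in SKO+MEF2C cells and at 8.08 and 8.24 in SKO+Flag cells, against 4.90 in GFP cells, whereas for Dsp the SKO+MEF2C and SKO+Flag points are close.

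Of 11 keratins 4 were higher (Krt80, Krt19, Krt6a and Krt14) and Krt7 was lower, with a median of -0.06. The shares over all genes were 16.6% higher and 14.6% lower. Krt8, of simple epithelia, read 6.19, 6.05, 6.60 and 6.48 in SKO+MEF2C cells and 6.54, 6.47, 7.68 and 7.11 in SKO+Flag cells, against 6.45 and 6.71 in GFP cells. It was not above GFP (-0.25, interval -0.53 to 0.03) and was below SKO+Flag (-0.62 ± 0.10, adjusted p = 0.0029), as were Krt19 (-0.26 ± 0.05, adjusted p = 0.0066) and Krt14 (-0.33 ± 0.05, adjusted p = 0.0026). With a shared day effect 1 keratin was higher than in GFP cells, both with all arrays and without the GFP array of day 10. Without that GFP array Krt19 and Krt14 differed by -0.39 and -0.16 (adjusted p = 0.37 and 0.55). The Krt6a call was lost without any one of the 6 arrays, at adjusted p of 0.057 to 0.29, and without the GFP array of day 6 the Krt7 difference of -0.51 was -0.13 (adjusted p = 0.75).

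Of 14 regulators of epithelial transcription and splicing, Ehf was the 1 that rose, and Elf5 and Klf5 were lower. These counts are close to or below the shares over all genes, 16.6% higher and 14.6% lower. Ehf, an ETS factor of epithelia, read 6.17, 6.13, 6.19 and 6.41 in SKO+MEF2C cells and 6.37, 6.36, 6.54 and 6.79 in SKO+Flag cells, against 4.99 and 4.95 in GFP cells. The SKO+MEF2C arrays stood above GFP by 1.26 ± 0.09 (adjusted p = 8e-07), or by 0.94 without the GFP array of day 10 (adjusted p = 0.055). The difference of Ehf from SKO+Flag was -0.29 ± 0.07 (adjusted p = 0.028) and lost its call when any one of 6 of the 8 arrays was left out. The calls of Elf5 and Klf5, the latter with a difference of -0.23, were lost without most single arrays. Elf5 lay below the array median in both groups, so no size is claimed for it. Of these 14 genes, only Klf5 lay above the array median in GFP cells.

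Of 28 genes of the pluripotency network 5 were higher than in GFP cells and 4 lower, close to the shares over all genes (16.6% higher and 14.6% lower), with a median of -0.08, and 7 lay above the array median in GFP cells. L1td1, an RNA-binding protein of pluripotent cells, read 6.81, 6.70, 7.23 and 7.24 in SKO+MEF2C cells and 7.11, 7.22, 7.74 and 7.88 in SKO+Flag cells, against 5.68 and 5.31 in GFP cells (1.5 ± 0.07 against GFP, adjusted p = 1.5e-08). Tfcp2l1, a transcription factor of naive stem cells, read 6.18, 6.15, 6.79 and 6.88 in SKO+MEF2C cells and 6.60, 6.54, 7.63 and 7.81 in SKO+Flag cells, against 5.56 and 5.50 in GFP cells (0.97 ± 0.07, adjusted p = 5e-07). In both, SKO+MEF2C lay between SKO+Flag and GFP at each day. The differences from SKO+Flag were -0.49 ± 0.05 (adjusted p = 0.00018) and -0.64 ± 0.05 (adjusted p = 2.8e-05).

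Tet2, which oxidises methylated DNA, rose by 0.90 ± 0.11 against GFP (adjusted p = 6.5e-05) and differed from SKO+Flag by -0.50 ± 0.09 (adjusted p = 0.0043). Alpl, alkaline phosphatase, a marker used to find reprogrammed colonies, read 5.97, 5.98, 6.08 and 5.87 in SKO+MEF2C cells and 6.45, 6.41, 6.70 and 6.67 in SKO+Flag cells, against 5.88 and 5.74 in GFP cells. Its SKO+MEF2C and GFP arrays overlapped and its SKO+Flag arrays lay above both (-0.58 ± 0.05 from SKO+Flag, adjusted p = 4.4e-05). Against SKO+Flag 6 of the 28 were lower, Sall1 and Nr0b1 among them, and 0 higher, beside 4.82% and 5.49% of all genes. Klf2, a naive-state factor that fibroblasts express too, was lower than in GFP cells (-0.50 ± 0.10, adjusted p = 0.0036). Without the GFP array of day 10, 2 of the network were higher and 2 lower than in GFP cells, beside 3 and 3 in the same model with both arrays, and the Tfcp2l1 difference was 0.42 (adjusted p = 0.14). Without 1 other array, the GFP array of day 6 or experiment 2 of SKO+MEF2C at day 6 or day 10, the number lower was 1, 2 and 2. Alpl was higher than in GFP cells without the GFP array of day 6 (0.31, adjusted p = 0.044) or without SKO+MEF2C experiment 2 at day 10 (0.22, adjusted p = 0.017).

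Most cell cycle genes were higher than in GFP cells. Of 29 members 22 were higher and E2f1 was lower, with a median of 0.38, beside 16.6% and 14.6% of all genes. Rrm1 and Rrm2, the subunits of ribonucleotide reductase, rose by 1.00 ± 0.06 (adjusted p = 1.4e-07) and 0.86 ± 0.06 (adjusted p = 6.8e-07). Mki67, the proliferation antigen, read 8.12, 8.01, 8.15 and 8.06 in SKO+MEF2C cells, against 7.40 and 6.99 in GFP cells (0.89 ± 0.15, adjusted p = 0.00083). Ccnd1, cyclin D1, was higher by 0.88 ± 0.05 (adjusted p = 2.1e-07).

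Against SKO+Flag cells 13 of the 29 cell cycle genes were lower and 0 higher (median -0.19), where 4.82% of all genes were lower. Ccna2, cyclin A2, read 8.66, 8.69, 8.71 and 8.71 in SKO+MEF2C cells and 9.16, 9.13, 8.93 and 8.92 in SKO+Flag cells, against 8.25 and 8.03 in GFP cells, with no overlap among the 3 groups (-0.34 ± 0.04 from SKO+Flag, adjusted p = 0.00027). Cenpa, the histone of centromeres, differed from SKO+Flag by -0.40 ± 0.05 (adjusted p = 0.0006). The counts moved with single arrays: 12 genes were higher than in GFP cells without the GFP array of day 10 and 14 without that of day 6, beside 19 in the same model with both. Against SKO+Flag, 8 were lower without SKO+MEF2C experiment 1 at either day and 7 without SKO+Flag experiment 1 at day 6.

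Nearly every gene of cholesterol synthesis rose, with 15 of 16 higher, 0 lower and a median of 0.53. The shares over all genes were 16.6% higher and 14.6% lower. Idi1, an isomerase of the mevalonate pathway, read 9.30, 9.34, 9.11 and 9.14 in SKO+MEF2C cells, against 8.50 and 7.58 in GFP cells (1.18 ± 0.11, adjusted p = 7.3e-06). Msmo1, a sterol oxidase, read 10.96, 10.85, 10.86 and 10.79 in SKO+MEF2C cells, against 10.41 and 9.5 in GFP cells (0.91 ± 0.06, adjusted p = 5.6e-07). The SKO+MEF2C arrays hardly differed between the days and the GFP array of day 10 was the lower one. The median difference was 0.31 at day 6 and 0.78 at day 10, and 9 members were higher without the GFP array of day 10, beside 15 in the same model with both. Against SKO+Flag 0 of the 16 passed the adjusted limma test in either direction, with differences from -0.19 to 0.17, and 2 were higher and 1 lower at an unadjusted p under 0.05. By the adjusted test 5.49% of all genes were higher than in SKO+Flag cells and 4.82% lower, so a list of 16 would hold few.

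Genes of the p53, Ink4 and senescence list were mostly lower than in GFP cells, with 10 of 14 lower, 2 higher and a median of -0.58. The shares over all genes were 14.6% lower and 16.6% higher. Plk2, a p53 target kinase, fell by 1.38 ± 0.07 (adjusted p = 6.3e-08), and Cdkn2a, the Ink4a and Arf locus, chosen after its values were seen, fell by 0.81 ± 0.11 (adjusted p = 0.0002). The 2 binding proteins of insulin-like growth factors in the list went opposite ways. Igfbp3 read 12.30, 12.25, 12.22 and 12.34 in SKO+MEF2C cells, against 8.73 and 10.78 in GFP cells (2.52 ± 0.06, adjusted p = 1.5e-10), and Igfbp5 read 7.20, 7.06, 7.56 and 7.65, against 8.21 and 10.09 in GFP cells (-1.78 ± 0.07, adjusted p = 4.4e-09). Both also exceeded SKO+Flag cells, by 0.36 ± 0.05 (adjusted p = 0.00058) and 0.51 ± 0.05 (adjusted p = 0.00014). Cdkn1c, a cell cycle inhibitor, was below both, with differences of -0.47 ± 0.07 from GFP (adjusted p = 0.00022) and -0.45 ± 0.05 from SKO+Flag (adjusted p = 0.00035). Without the GFP array of day 10, 6 of the list were lower, beside 9 in the same model with both arrays, and the difference of Cdkn1c from GFP was -0.03 (adjusted p = 0.89).

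MEF2 family members, class IIa deacetylases and known MEF2 targets were read as a list of 31. Against GFP 8 were higher and 8 lower, where 16.6% of all genes were higher and 14.6% lower, and the median was -0.01. The higher genes include Mef2c, which was transduced. Nr4a1, an orphan nuclear receptor induced through MEF2 in T cells, was higher by 1.89 ± 0.05 (adjusted p = 3.2e-10) and Ckb, the brain creatine kinase, by 1.61 ± 0.07 (adjusted p = 1.5e-08). For both, SKO+Flag cells were also above GFP, by 1.88 and 1.44. Neither gene passed the adjusted limma test between SKO+MEF2C and SKO+Flag cells, which does not show equal levels. Fabp3, the heart fatty acid binding protein, read 7.66, 7.5, 7.12 and 7.27 in SKO+MEF2C cells and 6.18, 6.31, 5.63 and 5.34 in SKO+Flag cells, against 6.39 and 6.19 in GFP cells. It was above both groups on all 4 SKO+MEF2C arrays, by 1.10 ± 0.09 from GFP (adjusted p = 2.4e-06) and 1.52 ± 0.07 from SKO+Flag (adjusted p = 9e-07).

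Against SKO+Flag cells 7 of the 31 were higher (Mef2c, Hdac9, Myom1, Tnni1, Acta1, Des and Fabp3) and Jun was lower. Of all genes 5.49% were higher and 4.82% lower, and Mef2c counts among the 7 as the transduced gene. Myom1, a protein of the sarcomere's M band, read 5.74, 5.61, 5.56 and 5.49 in SKO+MEF2C cells and 5.19, 5.14, 4.84 and 5.03 in SKO+Flag cells, against 6.26 and 6.37 in GFP cells. Myom1 lay between the other groups, higher than in SKO+Flag cells (adjusted p = 0.00023) and lower than in GFP cells (-0.72 ± 0.08, adjusted p = 2.5e-05). Its SKO+MEF2C levels were at or below the array median and its SKO+Flag levels below it. No size is therefore claimed against SKO+Flag, and the difference from GFP is a lower bound. The count of members lower than in GFP cells was 5 without SKO+MEF2C experiment 2 at day 10. With a shared day effect it was 4 with all arrays, 4 without the GFP array of day 10 and 5 without that of day 6.

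The genes that differed most between SKO+Flag and GFP cells are given as a description. Trh, which encodes thyrotropin-releasing hormone, read 7.88, 8.07, 9.23 and 9.36 in SKO+MEF2C cells, against 5.02 and 5.43 in GFP cells. SKO+MEF2C cells exceeded GFP cells by 3.41 and SKO+Flag cells exceeded them by 4.94. For the secreted Wnt amplifier Rspo2 and the small proteoglycan Aspn, the differences from GFP were -2.37 and -2.10 in SKO+MEF2C cells and -2.65 and -2.56 in SKO+Flag cells. The other 17 of these 20 genes are among those raised or lowered most in SKO+MEF2C cells, described above, and the comparisons share the GFP arrays.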

How the data were processed

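Each array holds RNA of 1 culture on an Affymetrix mouse array. The authors deposited log2 expression values per probe set, and the submitters' processing notes name RMA and Partek without versions. The values were used as deposited. Of 28815 probe sets, 21780 have 1 gene symbol, 1605 several and 5430 none. A gene was represented by its probe set of highest mean level across all 14 arrays, which gave 19935 genes. Of these, 998 had several probe sets, of which 1 was used.

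All 14 arrays were fitted with limma 3.58.1 (R 4.3.3) as 8 groups of vector and day, with 6 residual and 4.71 prior degrees of freedom. The comparison with GFP is the mean of the day 6 and day 10 differences. Each GFP group has 1 array and is assumed to vary like the groups with 2, so the few arrays limit the precision. P-values were Benjamini-Hochberg adjusted over all genes. Experiment numbers were not used to pair the arrays in this fit. The differences between experiments 1 and 2 correlated between groups at -0.219 to 0.197. With 1 such difference per group, this cannot show whether arrays of the same number were handled together.

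The members and gene lists were chosen with earlier results of these data known. Genes named are the transduced factors, the 12 raised and the 12 lowered most, up to 4 called, 3 kept and 3 called against SKO+Flag per list, the 5 with the largest change at or between days in each direction, and the 10 with the largest SKO+Flag difference in each direction. Genes outside this rule are said to be chosen after their values were seen or are named only as members called. Alternatives were leaving out each array, additive models, fewer arrays, other normalizations, array weights, a robust prior with a trend, the mean over probe sets, a filter on low values, a minimum difference of 1 and the experiment number as a block. Promoter windows are RefSeq's (GRCm38.p6). The free-text description, which is the same for every array, was not used.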

Additional observations from a re-analysis of the deposited data

Results flagged for a closer look

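The SKO+MEF2C minus GFP difference changed between the days, by a test of the day 10 difference minus the day 6 difference, at 542 genes. Each day has 1 GFP array, so such a change and 1 unusual GFP array cannot be told apart. Among the genes lowered most, the change was -2.46 for Dpt, -2.10 for Dlk1, -1.28 for Ptn, -1.20 for Lum, -1.20 for Agtr2, -1.05 for Svep1 and -0.98 for Cxcl12. Among the genes raised most, it was -1.06 for Anxa10, -0.60 for Akr1c18, 0.69 for Gpr50, 0.71 for Sbspon and 0.85 for Podxl. The largest changes downward besides Dpt were -2.62 for Egfl6, -2.58 for Sfrp2, -2.47 for Ptx3 and -2.41 for Igfbp2. The largest changes upward were 2.03 for Cd34, 1.58 for Necab1, 1.57 for Epcam, 1.48 for Ifitm1 and 1.48 for Aqp3.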

How the results depend on the processing

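The number of genes called between SKO+MEF2C and GFP, 6237, ran from 4160 to 5700 when 1 array was left out and from 5006 to 6905 under the other settings without a minimum difference. The ranges with 1 array left out were 3112 to 3871 at day 6, 3513 to 4338 at day 10, 341 to 362 for the change between days, 1381 to 2148 against SKO+Flag and 4654 to 7550 for SKO+Flag against GFP. The lowest counts for SKO+MEF2C and for SKO+Flag against GFP came without a GFP array, from the model with a shared day effect. With both GFP arrays that model called 5376 genes for SKO+MEF2C, and it was not run for SKO+Flag. With a difference of at least 1, the counts were 743 for both days, 679 at day 6, 935 at day 10, 141 for the change between days, 27 against SKO+Flag and 903 for SKO+Flag against GFP. The experiment number as a replicate block gave 6198 genes against GFP, 4101 at day 6, 4521 at day 10, 508 between days, 2007 against SKO+Flag and 7104 for SKO+Flag against GFP, and as a block within each day 6412, 4247, 4655, 542, 2034 and 7337.

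Of 164 named genes, 60 changed a call, a direction or a value past the spread under at least 1 setting against GFP, and 36 against SKO+Flag. Directions turned only without a GFP array, where the comparison rests on the GFP array of the other day and a day effect shared by the vectors. That model with both GFP arrays called 5376 genes, turned no direction and left the differences of the named genes as they were. Without that of day 6 the difference was -0.54 for Egfl6, 0.046 for Ltbp1, -0.41 for Sfrp2 and -0.28 for Smad6. Without that of day 10 it was -0.25 for Cd34, 0.060 for Cdh2, 0.080 for Eln, -0.47 for Epcam, -0.16 for Krt14, -0.39 for Krt19, -0.19 for Oas2, 0.043 for Prrx2, -0.10 for S100a4, -0.67 for Slc7a3 and 0.13 for Twist1. Beyond the array left out, the cause was not tested. Genes near or below the array median are limited by their signal over background.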

Other observations

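Amino acid transport and ATF4 stress genes were mostly lower in SKO+MEF2C cells. Against GFP 12 of 19 were lower and 2 higher, beside 14.6% and 16.6% of all genes, with a median of -0.29. Slc7a5, a transporter of large amino acids, read 7.75, 7.83, 7.70 and 7.71 in SKO+MEF2C cells, against 9.04 and 9.42 in GFP cells (-1.48 ± 0.07, adjusted p = 4.6e-08), and Trib3, an ATF4 target, differed by -1.47 ± 0.06 (adjusted p = 1.2e-08). The arrays of both genes did not overlap. The arginine transporter gene Slc7a3 read 6.04, 6.11, 7.09 and 7.21 in SKO+MEF2C cells and averaged 6.63 at day 6 and 9.61 at day 10 in SKO+Flag cells, against 6.13 and 6.35 in GFP cells. It was lower than in SKO+Flag cells by a difference of -1.51 ± 0.05 (adjusted p = 4.9e-08).

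Of 19 interferon response genes, 12 were lower and 2 higher than in GFP cells (median -0.31), and 6 were lower than in SKO+Flag cells. The shares over all genes were 14.6%, 16.6% and 4.82%. Ifit1 read 5.75, 5.73, 6.02 and 6.09 in SKO+MEF2C cells, against 7.22 and 8.16 in GFP cells (-1.79 ± 0.09, adjusted p = 3.9e-08). Without the GFP array of day 6, 6 were lower than in GFP cells, beside 12 in the same model with both arrays. Of 22 Hox genes, which record the position of a fibroblast along the body, 7 were lower and Hoxa9 higher than in GFP cells. Of all genes 14.6% were lower and 16.6% higher. Of the 19 Hox genes above the GFP array median 14 were kept, close to the 70.3% of all genes above it. Of the 22, 0 passed the adjusted limma test against SKO+Flag cells, and 3 were higher and 3 lower at an unadjusted p under 0.05. By the adjusted test 5.49% of all genes were higher than in SKO+Flag cells and 4.82% lower, so a list of 22 would hold few. Hoxc8 had the largest difference from GFP cells, -0.52 ± 0.08 (adjusted p = 0.00053). The number of Hox genes lower than in GFP cells was 3 without either GFP array, beside 7 in the same model with both, and 4 without SKO+MEF2C experiment 1 at day 6.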
